A study of Mus musculus with 6 samples.

Results

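The type I interferon response genes described here are 37 mouse genes of the pathway that begins at the interferon-α/β receptor, of 27376 gene names on the array. They comprise the receptor chains, the transcription factors that act after it, sensors of viral nucleic acids, and effectors that interferon induces. The genes were grouped after interferon-stimulated genes had been noticed among those lower in the same arrays, so their levels and differences are given as a description and support no claim about the list. Each gene was read at its brightest probe, the one with the highest mean over the 6 arrays, among probes that carry its name.

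Naive T cells, taken as the CD4+CD25-Foxp3gfp-CD62Lhi fraction by flow cytometry, came from spleens of 6-week-old mice on the C57BL/6 background. The donors were 3 individual miR-31fl/fl CD4Cre (cKO) mice and 3 age-matched controls, which were miR-31fl/fl mice without Cre. All 6 cultures received plate-bound anti-CD3 (5 μg/ml), soluble anti-CD28 (2 μg/ml), TGF-β1 (5 ng/ml) and IL-2 (40 ng/ml) for 4 days, conditions that turn naive cells into induced regulatory T (iTreg) cells, and RNA of each culture was hybridized to its own one-colour microarray. No type I interferon was among the agents that the labels list. Cre is driven by Cd4 sequences, which are active in the T cell lineage, and was present in the cKO cells alone, so the loss of miR-31 and the presence of Cre cannot be told apart here.

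The miR-31 locus deleted in cKO cells encodes mmu-miR-31-5p and mmu-miR-31-3p. The 5p RNA is shown because its locus defines the genotype, with its seed (bases 2 to 8) in capitals. It lies at chr4:88910614-88910635 on the minus strand of GRCm38.p6, according to RefSeq.
mmu-miR-31-5p: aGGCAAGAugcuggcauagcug
Of the array's probes, 0 are named for miR-31, so its loss could not be read on these arrays.

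Type I interferons (interferon-α and interferon-β) bind a receptor of the chains IFNAR1 and IFNAR2. The kinases JAK1 and TYK2 then phosphorylate STAT proteins, and a complex with STAT2 and IRF9 binds interferon-stimulated response elements (ISRE) in the promoters of target genes. The induced proteins detect viral RNA and DNA, block translation, degrade RNA or tag proteins with ISG15, and USP18 and SOCS proteins turn the signal down. Low levels of many of these transcripts are present in T cells without infection.

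The ISRE core was searched on both strands as GAAA, then any 2 bases, then GAAA, where overlapping matches were joined, in RefSeq promoters of 300 bases (250 before and 50 after the start, GRCm38.p6). The table holds a promoter for 28 of the 37 genes and not for the other 9. Of the 28, 13 (46.4%) hold a match, and 3.99% of all 27025 genes with a promoter in the table do. The windows of the genes that the results turn on are shown 5′ to 3′ on the gene's strand, with the matches in capitals, first for genes whose highest cKO array was below the lowest control array.
Isg15, chr4:156200871-156200900, minus strand, 3 overlapping matches that begin 78 bases before the start: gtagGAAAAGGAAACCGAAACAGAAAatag
Ifit1, chr19:34640775-34640804, plus strand, 104 bases before the start: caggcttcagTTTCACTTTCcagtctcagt
Ifit1, chr19:34640794-34640823, plus strand, 85 bases before the start: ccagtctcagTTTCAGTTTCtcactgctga
Ifit3, chr19:34583363-34583392, plus strand, 156 bases before the start: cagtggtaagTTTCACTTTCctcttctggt
Ifit3, chr19:34583397-34583426, plus strand, 122 bases before the start: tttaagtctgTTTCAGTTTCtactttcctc
Ifih1, chr2:62646206-62646233, minus strand, 32 bases after the start: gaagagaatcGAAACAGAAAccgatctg
Ddx58, chr4:40239804-40239833, minus strand, 2 bases after the start: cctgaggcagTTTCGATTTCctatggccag
Eif2ak2, chr17:78882535-78882564, minus strand, 18 bases after the start: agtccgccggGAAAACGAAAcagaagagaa
The same core also stands in promoters of members whose groups overlapped or that were higher in cKO, of which Stat2, Oas3 and Bst2 are shown for contrast.
Stat2, chr10:128270266-128270295, plus strand, 222 bases before the start: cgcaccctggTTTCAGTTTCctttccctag
Oas3, chr5:120777715-120777744, minus strand, 75 bases before the start: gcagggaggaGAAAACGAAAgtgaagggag
Bst2, chr8:71537580-71537609, minus strand, 2 overlapping matches that begin 130 bases before the start: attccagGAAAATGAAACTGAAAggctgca
Among the genes tested for expression below, 11 hold the core and 13 have a promoter without it. The median log2 fold change over the 11 was −0.63, with 9 of them lower in cKO, and that over the 13 was −0.44, with 8 lower. Xaf1, Irf7, Ifit2, Isg20, Ifi35 and Adar are among those without a match in these 300 bases. The motif TTCNNNGAA, known as the interferon-γ-activated site, was found in 11 of the 28 promoters and in 9.55% of all genes with a promoter. For this motif the medians lay the other way. Over the 10 tested genes with it the median was −0.47, with 6 lower, and over the 14 without it −0.74, with 11 lower. Neither split was tested. A match is a stretch of letters and not a measured binding site.

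A level below is a probe's signal on the log2 scale after subtracting the same array's 75th percentile, so that 0 is that percentile, and a log2 fold change is the cKO mean minus the control mean. Levels of different probes are not on a common scale, so no difference between genes is drawn from them, and brightness served only to choose which probe or marker to name. The sums over marker lists given below describe each list and are not compared between lists. That percentile was a signal of 987 to 1148, between 49.3% and 57.7% of spots were well above background, and 0 spots were saturated. The 3 cKO arrays and control array 1 share a slide, while control arrays 2 and 3 lie on another. With the slide as a term the fit reduces to the mean of the 3 cKO arrays minus control array 1, the only comparison within a slide. That value is given below as the same-slide value, and it rests on 1 control array.

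Of the 37 genes, 31 had a probe that stood well above background on 3 or more arrays and were tested, 30 of them on all 6. In cKO iTreg cells, 23 of the 31 were lower and 8 higher, and the median log2 fold change was −0.48, against −0.04 over all 22281 tested probes. Among the lower genes were Rtp4, Xaf1, Isg15 and the Ifit genes, while the receptor chains, Stat2 and Irf9 lay near or above the control level. Bst2, Dhx58, Trex1 and Samhd1 were higher, as was Trim25 at its brightest probe, and Oas3 was at the control level. No contrast between roles is read from this, since lower interferon-stimulated genes had prompted the list. For 16 genes the cKO arrays were all below the control arrays, and for 3 they were all above. A negative fold change was seen for 55.2% of all tested probes, full separation downward for 20.7% and upward for 15.9%. The members were picked with the direction in view, so nothing is read from these shares.

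In limma with Benjamini-Hochberg adjustment over all tested probes, an adjusted p under 0.05 was reached by 0 of the 31, where 54 probes of the array (0.242%) did. The adjusted p of the 16 separated lower genes was between 0.066 and 0.22. Without adjustment, 15 genes were lower and 1 higher with p under 0.05, where 11.4% and 11.5% of all tested probes were. A log2 fold change of −1 or lower was found for 6 of the 31 genes and 1.87% of tested probes, and of −0.5 or lower for 14 of the genes and 10.0% of tested probes. The same-slide value was negative for 20 of the 31 genes, with a median of −0.38, while 50.4% of probes were negative in that comparison. In the 16 separated lower genes each cKO array lies below control array 1, so a negative same-slide value was fixed in advance. Its lowest adjusted p among the 31 was 0.39. In RNA from whole cultures, fewer responding cells and less RNA per cell cannot be told apart.

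**Figure D1:**
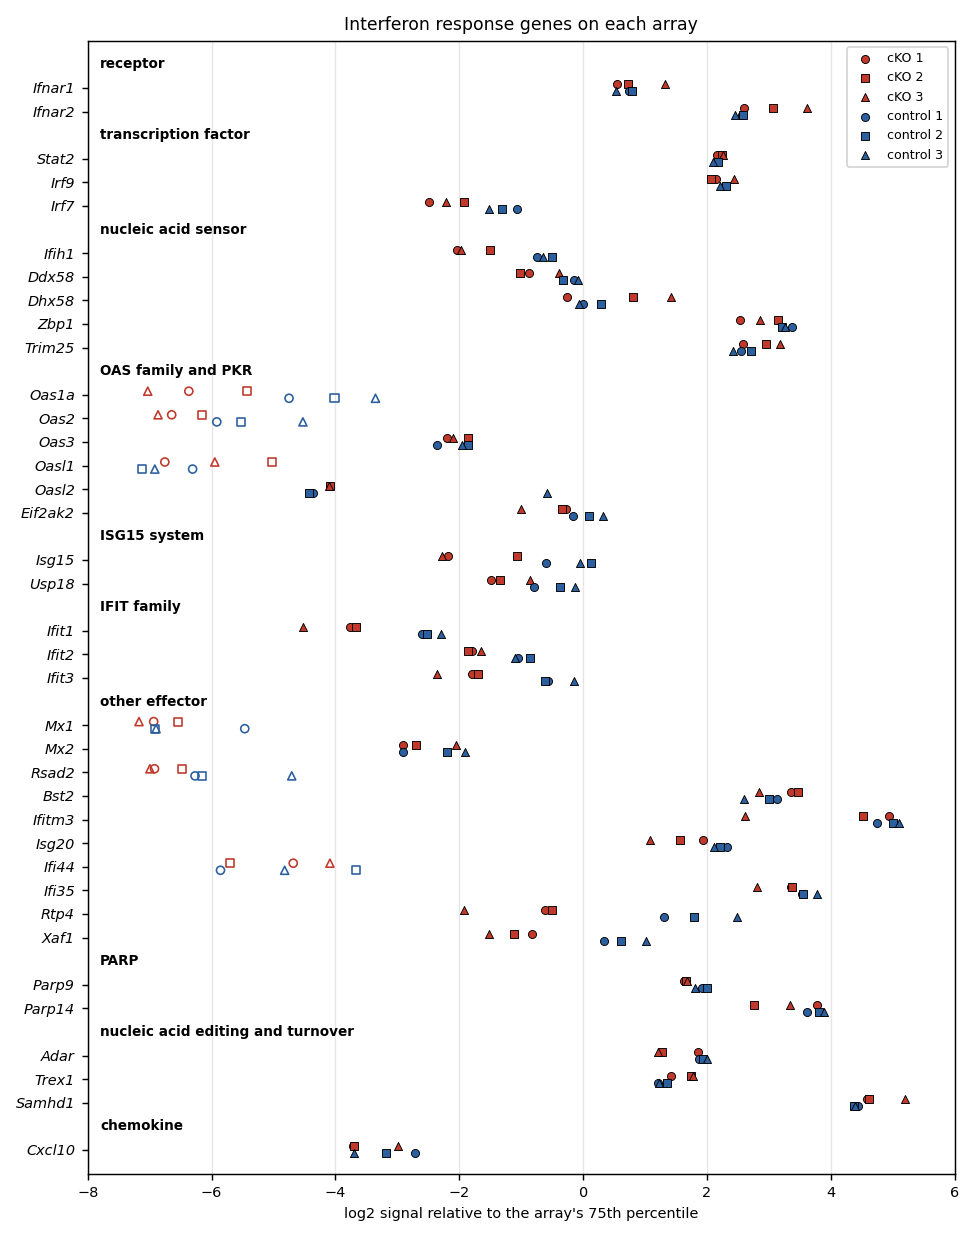
Level of each of the 37 genes on each array, as log2 signal minus the 75th percentile of that array, grouped by role, with cKO arrays in red, control arrays in blue and the symbol giving the replicate. Open symbols mark the 6 genes that were well above background on fewer than 3 arrays. Red and blue are fully apart for Rtp4, Xaf1, Isg15 and Ifit1 to Ifit3 and intermixed for Irf9, Oas3 and Mx2.

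The receptor chains were not lower in cKO cells. Ifnar1 had levels of 0.55, 0.72 and 1.32 on cKO arrays 1 to 3 and 0.75, 0.78 and 0.54 on control arrays 1 to 3, a log2 fold change of 0.18 (SE 0.22, n = 3 each). The groups overlapped, and without cKO array 3 the difference was −0.05. Ifnar2 had 2.60, 3.06 and 3.61 in cKO and 2.56, 2.58 and 2.45 in control, with a log2 fold change of 0.56 (SE 0.25) and separation upward by a narrow margin, and the difference was 0.30 without cKO array 3. Its second probe, on the same transcript, gave 0.02, so the probes of Ifnar2 disagree.

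Of the transcription factors, Stat2 and Irf9, whose products belong to the ISRE-binding complex, had log2 fold changes of 0.08 (SE 0.09) and −0.06 (SE 0.13). Stat2 read 2.16, 2.23 and 2.26 in cKO and 2.15, 2.18 and 2.09 in control. Irf9 read 2.14, 2.06 and 2.44 in cKO and 2.29, 2.31 and 2.21 in control. Both sets of arrays overlapped. Irf7, the factor that amplifies interferon-α transcription and is itself induced by interferon, differed from them. Its levels were −2.49, −1.93 and −2.21 in cKO and −1.07, −1.30 and −1.51 in control, a log2 fold change of −0.91 (SE 0.19, 1.88-fold lower), which was −0.33 with normexp background correction and the 75th percentile, and the same-slide value was −1.14. Every cKO array was below every control array.

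Of the 5 sensing genes, Ifih1, Ddx58 and Zbp1 were lower with separated groups, and Dhx58 and Trim25 were higher with overlapping ones. Ifih1 encodes MDA5, a sensor of long double-stranded RNA. Its levels were −2.03, −1.50 and −1.97 in cKO and −0.74, −0.51 and −0.65 in control, so that the log2 fold change of −1.20 (SE 0.17, 2.30-fold lower) exceeded the spread within either group. The same-slide value for Ifih1 was −1.10, the adjusted p was 0.066 in limma, and normexp with the 75th percentile gave −0.65. Ddx58 encodes RIG-I, a sensor of RNA with 5′ triphosphates. Its brightest probe read −0.87, −1.02 and −0.39 in cKO and −0.16, −0.32 and −0.09 in control, a log2 fold change of −0.57 (SE 0.18). The other 3 probes of Ddx58 gave −1.11, −0.32 and −0.53, so that all 4 were lower in the main fit. Those 3 were dim, above background on 2, 2 and 1 of the cKO arrays. Among the alternatives that kept all arrays, their highest fold changes were −0.0008, 0.45 and 0.45. Agreement between the probes is therefore not read from them.

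Zbp1, a sensor of Z-form nucleic acids, read 2.53, 3.15 and 2.86 in cKO and 3.38, 3.21 and 3.26 in control, a difference of −0.44 (SE 0.17) that was −0.28 without cKO array 1. The highest cKO array lay 0.06 below the lowest control array. Dhx58, whose product LGP2 modulates RIG-I and MDA5, spread more widely in cKO (−0.26, 0.81 and 1.42) than in control (−0.01, 0.29 and −0.07), and its log2 fold change of 0.59 (SE 0.41) was 0.21 without cKO array 3. Trim25, a ubiquitin ligase for RIG-I, gave 0.34 (SE 0.18) at its brightest probe and −0.40 at its second. The mean over the probes of Trim25 was −0.03, so no direction is given for it.

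The oligoadenylate synthetases make the messenger that activates RNase L, and Eif2ak2 encodes PKR, a kinase that stops translation when it binds double-stranded RNA. Eif2ak2 read −0.28, −0.35 and −1.0 in cKO and −0.16, 0.09 and 0.32 in control. The groups were separated, with a log2 fold change of −0.63 (SE 0.23), a same-slide value of −0.38 and −0.40 without cKO array 3. Oas3 did not differ beyond its spread, with −2.21, −1.86 and −2.11 in cKO, −2.36, −1.85 and −1.96 in control, and a difference of −0.00 (SE 0.17).

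Oasl2 rested on a single array. Its levels were −4.09, −4.09 and −4.10 in cKO and −4.36, −4.43 and −0.58 in control, so the fold change of −0.97 (SE 1.03) became 0.30 without control array 3. Of 7 myeloid markers, Lyz2 and Itgam also had their highest level on that array, while Cd14, Flt3 and Cd68 had their lowest there. Of 4 natural killer cell markers, Klra8 had its highest level on it and Ncr1 and Eomes their lowest. Cd14, Flt3 and Ncr1 were above background on 0 control arrays, so their low rank there is among undetected values. Cd68 and Eomes were above background on all 3 control arrays. The part of other cells in the value for Oasl2 was not tested. The remaining 3 of the family were not tested. Oas1a was not well above background on any cKO array and was above it on 2 control arrays, with levels of −6.37, −5.43 and −7.03 against −4.75, −4.02 and −3.35. As a cKO limit, the lowest signal of any probe well above background was taken on each cKO array. The control mean of Oas1a was 1.45-fold above that limit. It includes control array 1, which was not above background, so 1.45 is not a firm bound on the difference. Oas2 and Oasl1 were above background on 0 arrays. The Oas1 genes are near copies of each other, and a probe for one may also read its neighbours.

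Isg15, the ubiquitin-like protein that is attached to other proteins, and Usp18, the protease that removes it and also restrains the receptor, were both lower. Isg15 had levels of −2.19, −1.07 and −2.28 in cKO and −0.60, 0.13 and −0.05 in control. The log2 fold change was −1.67 (SE 0.37, 3.18-fold lower), with an adjusted p of 0.12 in limma, a same-slide value of −1.24 and −1.05 under normexp with the 75th percentile. For Usp18 the levels were −1.50, −1.34 and −0.86 in cKO and −0.79, −0.37 and −0.13 in control, and the log2 fold change was −0.80 (SE 0.23). Usp18 separated by a narrow margin, between cKO array 3 and control array 1, and its same-slide value of −0.44 was closer to 0.

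The Ifit genes lie next to each other on chromosome 19 and encode proteins that bind viral RNA ends. All 3 were lower with separated groups. Ifit1 read −3.76, −3.67 and −4.52 in cKO and −2.60, −2.53 and −2.29 in control, a log2 fold change of −1.51 (SE 0.25, 2.85-fold lower). Ifit2 read −1.80, −1.87 and −1.65 in cKO and −1.06, −0.86 and −1.09 in control, with −0.77 (SE 0.12), and its second probe gave −0.58. Ifit3 read −1.80, −1.70 and −2.35 in cKO and −0.57, −0.61 and −0.15 in control, with −1.51 (SE 0.22). The gap between the groups was wider than the range within either one for each of the 3, and the same-slide values were −1.38, −0.71 and −1.37. Adjusted p-values in limma were between 0.068 and 0.073. With normexp background correction and the 75th percentile, the log2 fold changes of Ifit1, Ifit2 and Ifit3 came to −0.13, −0.35 and −0.83. Ifit3 has a near-identical neighbour that its probe may also read.

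Rtp4 and Xaf1 showed the lowest fold changes of the 31 tested genes. Rtp4, a receptor transporter protein that interferon induces, is read by a probe at chr16:23613668-23613727 (mm9, the build of the array's annotation). Its levels were −0.62, −0.51 and −1.92 in cKO and 1.31, 1.78 and 2.48 in control. The log2 fold change was −2.88 (SE 0.46, 7.34-fold lower, adjusted p = 0.073 in limma), and the same-slide value was −2.33. Xaf1, an antagonist of an inhibitor of apoptosis, read −0.83, −1.12 and −1.51 in cKO and 0.33, 0.62 and 1.02 in control, a log2 fold change of −1.81 (SE 0.24, 3.51-fold lower, adjusted p = 0.066 in limma) with a same-slide value of −1.49. On both probes the highest cKO array was more than 1 log2 unit below the lowest control array.

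Isg20, an exonuclease that degrades viral RNA, read 1.94, 1.56 and 1.08 in cKO and 2.33, 2.21 and 2.12 in control. Its fold change was −0.69 (SE 0.22) with separated groups, its second probe gave −0.62, and the same-slide value was −0.80. Ifi35, a partner of NMI in innate immune signalling, read 3.36, 3.36 and 2.81 in cKO and 3.53, 3.56 and 3.77 in control, with −0.44 (SE 0.18), which was −0.26 without cKO array 3. Ifitm3, which blocks the fusion of viruses with endosomes, was near the control level on cKO arrays 1 and 2 (4.93 and 4.53 against 4.74, 5.01 and 5.10) and low on cKO array 3 (2.61). Without that array its fold change of −0.92 (SE 0.59) became −0.22. Bst2, which encodes tetherin, a protein that holds budding virions at the membrane, was 0.31 higher (SE 0.22) with overlapping groups and a same-slide value of 0.09.

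Mx2, a dynamin-like GTPase, read −2.91, −2.70 and −2.06 in cKO and −2.92, −2.19 and −1.91 in control, a difference of −0.22 (SE 0.33) that turned to 0.36 within the slide. The chemokine Cxcl10, which attracts T cells, read −3.72, −3.71 and −2.99 in cKO and −2.71, −3.19 and −3.70 in control, a difference of −0.27 (SE 0.31). The groups overlapped for both genes. Mx1, a restriction factor for influenza virus, and Rsad2, which encodes viperin, were above background on 0 arrays, and Ifi44 was above it on 1 cKO array and 1 control array. No fold change is given for these.

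Parp9 and Parp14, neighbours on chromosome 16, encode ADP-ribosyltransferase family proteins. Parp9 read 1.63, 1.66 and 1.68 in cKO and 1.91, 2.00 and 1.80 in control, a small difference of −0.25 (SE 0.10) with separated groups. Parp14 had −0.48 (SE 0.26) with overlapping groups, since cKO array 1 (3.77) lay within the control range of 3.62 to 3.89, and it was −0.22 without cKO array 2. Its other probes gave −0.35 and −0.26.

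Genes that edit or remove self nucleic acids did not move together. Adar, which converts adenosine to inosine in double-stranded RNA, read 1.85, 1.27 and 1.21 in cKO and 1.87, 1.94 and 2.00 in control, a log2 fold change of −0.49 (SE 0.19). The groups were separated by 0.02 only, at cKO array 1 and control array 1, and a second probe gave −0.22. Trex1, a DNA exonuclease, read 1.41, 1.75 and 1.77 in cKO and 1.20, 1.36 and 1.23 in control, with 0.38 (SE 0.13). Samhd1, which hydrolyses deoxynucleotides, read 4.58, 4.61 and 5.20 in cKO and 4.44, 4.38 and 4.39 in control, with 0.39 (SE 0.19) that was 0.19 without cKO array 3. Both genes were thus separated upward. The second probe of Samhd1 gave 1.30 (SE 0.66), with 0.69, 0.15 and 2.77 in cKO, and 0.52 without cKO array 3.

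**Figure D2:**
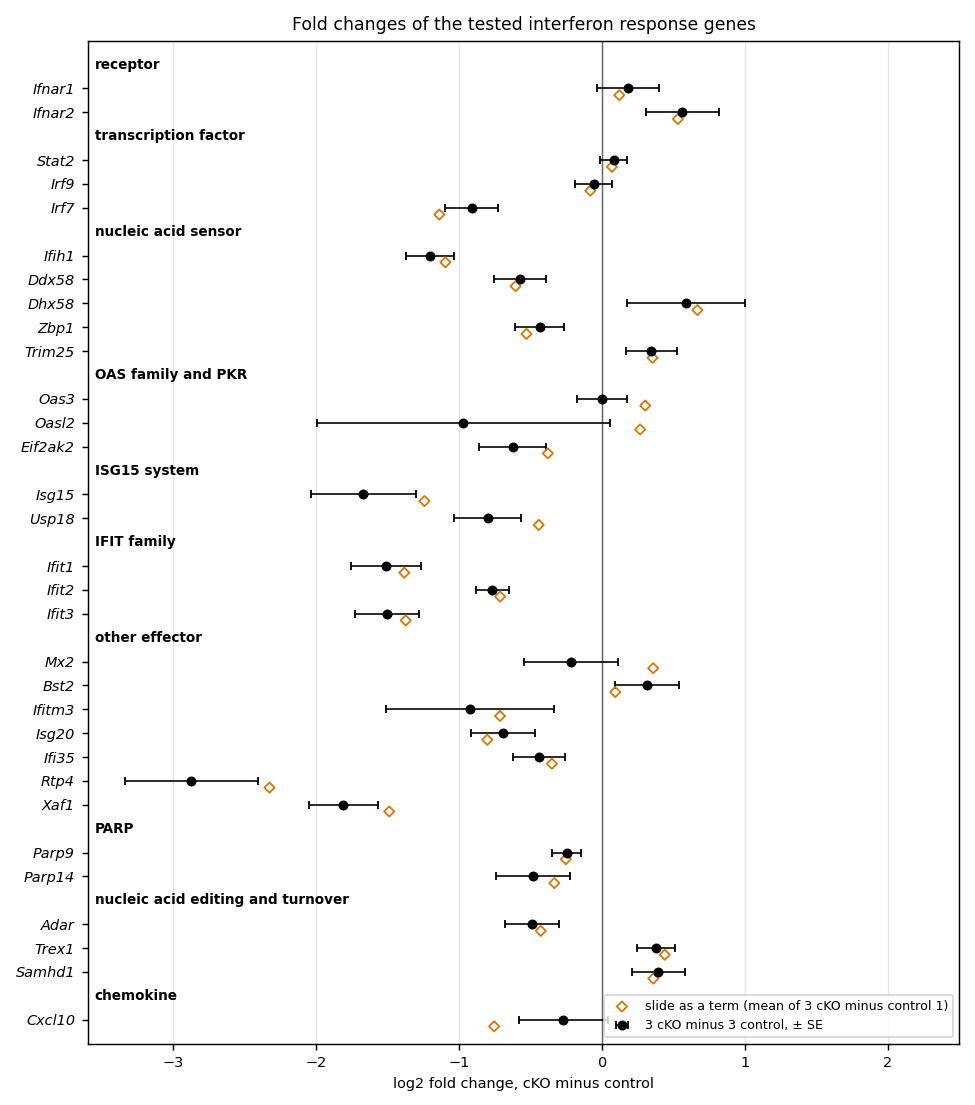
Log2 fold change (cKO minus control) of the 31 tested genes by role, with black points for all 6 arrays and bars of ± 1 standard error from limma (n = 3 each), and orange diamonds for the fit with the slide as a term, which equals the cKO mean minus control array 1. Both symbols lie left of 0 for the 16 genes with separated lower groups, which the separation itself fixes. They lie on opposite sides of 0 for Oasl2 and Mx2.

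The arrays of a group were not equally tight. Over the 31 genes the median SD between arrays was 0.34 in cKO and 0.15 in control, beside 0.23 and 0.12 over all tested probes. Array cKO 3 was the lowest of the 6 arrays for 10 genes and the highest for 8 (32.3% and 25.8% of them, against 35.2% and 28.1% over all probes). With cKO array 3 left out, 23 of the 31 genes were still lower, and the median log2 fold change was −0.44. Then 18 were separated downward, as were 24.5% of all tested probes. Genes separated on all 6 arrays stay so when an array is dropped, so this count could not fall. Relative to each gene's control mean, the median over the 31 genes was −0.33, −0.43 and −0.43 on cKO arrays 1 to 3 and −0.06, 0.04 and −0.01 on control arrays 1 to 3. The control arrays centre on their own mean by construction, so their closeness to it is no result. Of the 31 genes, 20, 21 and 20 were lower than control array 1 on cKO arrays 1 to 3, while 9 were lower than it on control array 2 and 14 on control array 3. Of 22262 tested probes with a value on every array, 10940, 10948 and 11256 were lower than control array 1 on cKO arrays 1 to 3. On control arrays 2 and 3, 9691 and 9129 of these probes were. Nothing is read from the gene counts, since the genes were picked with the direction in view.

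**Figure D3:**
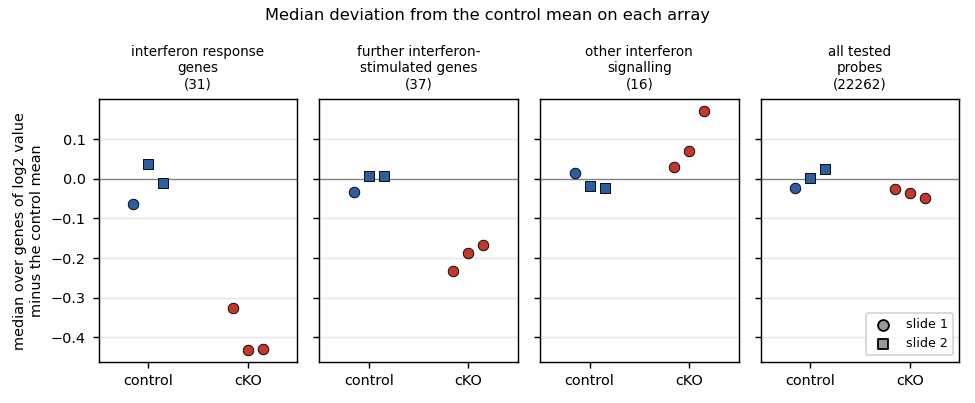
Median over genes of the log2 level minus the gene's control mean, for each array (circles on slide 1, squares on slide 2) in 4 panels of genes, with the number of genes or probes in parentheses. For the interferon response genes the cKO arrays lie between −0.43 and −0.33 and the control arrays between −0.06 and 0.04, while the cKO arrays of all tested probes lie between −0.05 and −0.02. The control arrays centre on the control mean by construction.

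The interferons themselves were mostly below detection. Of 20 ligand genes listed, 12 have a probe by that name. Of these 4 were tested, 3 were above background on 1 array and 5 on 0 arrays, Ifnb1 (interferon-β, named here after its values were seen) among the latter. Ifna9, Ifnz and Ifna13, of the type I group, had log2 fold changes of −0.11 (SE 0.14), 0.10 (SE 0.12) and 0.82 (SE 0.45) with overlapping groups. Ifna9 was above background on only 2 cKO and 2 control arrays, and Ifna13 on 3 and 2. The probes of these genes lie on chromosome 4, as the deleted miR-31 locus does. The part of the altered locus in their values was not tested. The interferon-α genes are near copies of each other, and their probes may not tell them apart. Ifng, the type II interferon that T cells make, read 5.41, 5.15 and 5.61 in cKO and 5.04, 4.22 and 2.68 in control, a log2 fold change of 1.41 (SE 0.57, adjusted p = 0.22 in limma). Every cKO array was above every control array, but the control arrays ranged widely, the same-slide value was 0.35, and the difference was 0.76 without control array 3.

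Of 16 further genes of interferon signalling, all tested, 5 were lower and 11 higher, where 55.2% of all tested probes were lower. Their median log2 fold change was 0.14, and 0 had an adjusted p under 0.05 in limma. The kinases Jak1, Tyk2 and Jak2 had 0.10 (SE 0.11), 0.23 (SE 0.18) and 0.61 (SE 0.23), the last with every cKO array above. Stat3, which transmits interleukin signals, was 0.58 higher (SE 0.16, separated upward).

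Among the interferon regulatory factors of that list, Irf1 had −0.16, Irf2 0.10, Irf3 −0.09, Irf4 0.32, Irf5 0.48 and Irf8 0.17, with standard errors of 0.10 to 0.23. The receptor chains for interferon-γ, Ifngr1 and Ifngr2, had 0.55 and 0.21 (SE 0.26 for each), which were 0.27 and −0.08 without cKO array 3, and Il10rb, a chain shared with type III interferon receptors, had −0.06. The coactivators Crebbp and Ep300 had −0.28 and 0.11. The signalling genes thus lay on both sides of 0 within 0.61 of it.

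Of 12 tested negative regulators 7 were lower and 5 higher (median −0.07). Socs1, an inhibitor of JAK kinases that interferons induce, was 0.59 lower on the log2 scale, with a fold change of −0.59 (SE 0.19) and separated groups, and Ptpn1 had −0.29. At the other end, Ptpn6 had 0.30 and Socs3, an inhibitor linked to STAT3 signalling, 1.04 (SE 0.27, separated upward), with a same-slide value of 0.55. Of 13 tested adaptors and kinases of nucleic acid sensing 8 were lower and 5 higher (median −0.07). Mb21d1, which encodes the DNA sensor cGAS, had −0.63 (SE 0.27, separated), and Myd88 −0.34, against Ikbke with 0.35 and Ticam1, the adaptor of TLR3, with 0.50 (SE 0.10, separated upward). In both lists 0 genes had an adjusted p under 0.05 in limma, and 55.2% of all tested probes were lower.

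A second set of interferon-stimulated genes outside the 37 held 48 names, of which 40 have a probe and 37 were tested. Of these 25 were lower and 12 higher, and the median log2 fold change was −0.17 against −0.04 over all probes. Separation downward was seen for 16 and upward for 3, and 0 had an adjusted p under 0.05 in limma. Over all tested probes 55.2% were lower, 20.7% separated downward and 15.9% upward. The same-slide value was negative for 25 of the 37 and for 50.4% of probes. Parp12, an antiviral ADP-ribosyltransferase, was not well above background on any cKO array and was above it on all 3 control arrays (−6.60, −5.36 and −6.61 against −3.41, −3.13 and −2.63). Its control mean was 2.86-fold above the cKO limit used for Oas1a. Parp12 passed the filter through the control arrays alone. Its log2 fold change was −0.10 with normexp background correction and the 75th percentile, so the size of the difference depended on the background correction. Cmpk2, a nucleotide kinase of mitochondria, read −2.83, −2.53 and −4.75 against −1.79, −1.49 and −1.26, a log2 fold change of −1.86 (SE 0.58) that was −1.17 without cKO array 3, which was not above background. Tdrd7 and Epsti1 lay at the other end with 0.51 (SE 0.15) and 0.50 (SE 0.14), both separated upward. This list was also written with earlier results of these arrays known.

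Of 12 tested genes known for the response to interferon-γ, 11 were lower in cKO while Ifng itself was higher, and the median log2 fold change was −0.36. Full separation downward was seen for 7 genes, and 0 had an adjusted p under 0.05 in limma. Over all tested probes 55.2% were lower and 20.7% separated downward. These genes too were chosen with earlier results known, so nothing is read from the shares. Ciita, the master regulator of MHC class II genes, read −2.28, −1.72 and −2.42 in cKO and −1.07, −1.44 and −1.68 in control, a difference of −0.74 (SE 0.24) with separated groups. Gbp2, a guanylate-binding GTPase, had −0.71 (SE 0.17), also separated, and a same-slide value of −0.91. Igtp had −0.09 (SE 0.10). The exception was Gbp1, which read 3.52, 2.75 and 3.19 in cKO and −1.03, 3.58 and −1.07 in control, a log2 fold change of 2.66 (SE 1.26). Control array 2 was at the cKO level for Gbp1 and the other two control arrays were more than 3 log2 units below it.

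**Figure D4:**
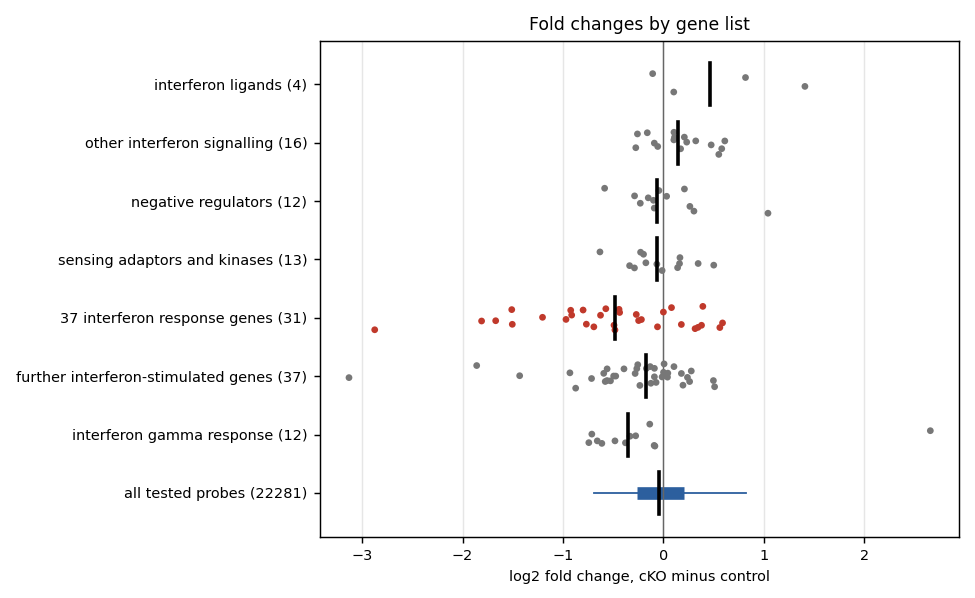
Log2 fold change (cKO minus control) of every tested gene in 7 gene lists, with the number tested in parentheses, black bars at the medians, and for all 22281 tested probes a thick band from the 25th to the 75th percentile (−0.27 to 0.21) and a thin line from the 5th to the 95th (−0.69 to 0.82). The interferon response genes, in red, have their median at −0.48 and range from −2.88 to 0.59, while the other signalling genes stay between −0.28 and 0.61.

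The cells carried the markers of their label. All 8 genes of a CD4 T and Treg list were above background on all 6 arrays, with a summed signal of 189 to 217 times the 75th percentile in cKO and 152 to 191 in control, and Tnfrsf18, the costimulatory receptor GITR, was the brightest (log2 fold change 0.40, SE 0.21). Foxp3, the lineage factor of Treg cells, read 3.16, 3.12 and 2.45 in cKO and 3.42, 3.42 and 3.76 in control, a difference of −0.62 (SE 0.22) with separated groups that was −0.39 without cKO array 3. Il2ra, the interleukin-2 receptor chain CD25, had −0.56 (SE 0.33) with overlapping groups, and −0.22 without cKO array 3. Of the 8 genes 3 were lower in cKO, Cd3e with −0.28 being the third, and 5 were higher, of which Ctla4 (0.94), Cd3g (0.74), Cd4 (0.66) and Cd28 (0.43) were separated upward. The part of these genes in the interferon gene values was not tested.

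Markers of other spleen cells were mostly near background. Both CD8 T cell genes were above it on all arrays, with summed signals of 3.87 to 4.34 in cKO and 4.42 to 5.61 in control, Cd8b1 being the brighter. Of 6 plasmacytoid dendritic genes, whose cells are a main source of interferon-α, 2 were above background on all arrays, with sums of 1.57 to 1.99 in cKO and 1.55 to 1.81 in control. The brightest, Tlr9 (−0.01, SE 0.14), did not differ beyond its error, and Siglech, the defining marker, was above background on 0 arrays. Of 7 myeloid genes 1 was above background throughout (Cd68, 0.63 higher, SE 0.22), with sums of 0.291 to 0.400 in cKO and 0.264 to 0.407 in control. Of 4 B cell genes 1 was (Cd79b, 0.60, SE 0.36; sums 0.538 to 1.26 and 0.372 to 0.617), and of 4 natural killer genes 1 was (Eomes, 0.17, SE 0.49; sums 0.720 to 1.17 and 0.470 to 1.30). Of 4 erythroid genes 1 was above background throughout, Hbb-b1, which was 2.10 higher in cKO (SE 0.64) with separated groups and sums of 0.480 to 1.05 against 0.195 to 0.381. Hba-a1 of the same list lay the other way, above background on 0 cKO and 2 control arrays. Its control mean was 1.79-fold above the cKO limit used for Oas1a. As for Oas1a, that mean includes a control array not above background, so 1.79 is not a firm bound. The part of these markers in the interferon gene values was not tested.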

How the data were processed

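RNA from 3 cKO and 3 miR-31fl/fl control mice was read on 6 Agilent whole mouse genome arrays of 1 colour. The authors deposited linear spot intensities, from which the background was subtracted within each array by Agilent Feature Extraction (10.7.3.1 in the file headers, 9.1 in the submitters' processing notes) and which were not scaled between arrays. A table of log2 values deposited by the authors served as an alternative. Its normalization is not given in the sources used here.

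Here log2 values were taken relative to the 75th percentile of the array, without outlier spots, and replicate spots were averaged. The 22281 probes that stood well above background on 3 or more of the 6 arrays were compared with limma 3.58.1 in R 4.3.3 (statmod 1.5.0) without covariates, with Benjamini-Hochberg adjustment and a threshold of 0.05. The fit was tested on simulated data. Python 3.11.15, pandas 2.3.3, numpy 2.4.6 and matplotlib 3.10.9 made the tables and plots. The number of arrays, 3 a group, limits the precision.

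The 37 genes, the other lists and the rule for named genes were chosen with earlier results of these data known. Named were all members at their brightest probe, the tested genes of the further signalling list (except 1, not reported here but counted), the 2 lowest and 2 highest of each other pathway list, the brightest gene of each marker list, Foxp3 and Il2ra. Ifnb1, Siglech, Hba-a1, the markers set beside Oasl2, the other T cell markers, Ube2l6, Uba7, Nmi and Herc6 were named after their values were seen. Promoter and miRNA sequences are those of RefSeq (GRCm38.p6). Probe positions are those of the array's annotation (mm9). Alternatives were normexp background correction (offset 50) scaled to the 75th percentile, normexp and quantile scaling changed together, quantile normalization alone, the median as scaling point, the authors' table, other filters, the slide or the replicate number as a term, array weights, trend and robust eBayes, the methods' Student's t-test, the mean over a gene's probes, a threshold of 0.10 and each array left out. The replicate numbers of the labels do not pair the samples.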

Additional observations from a re-analysis of the deposited data

How the results depend on the processing

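Of the 31 tested genes, 23 kept their direction under all 19 alternatives. The 8 exceptions were Ifnar1, Stat2, Irf9, Trim25, Oas3, Oasl2, Mx2 and Cxcl10. The other filters, trend and robust eBayes, the t-test and the replicate block leave a fold change as it is, so they could not change a direction. The 16 separated lower genes are among the 23. For them the slide term, array weights and leaving out an array could not change the sign either. The count with an adjusted p under 0.05 was 0 in limma, 1 with quantile normalization after normexp, 6 where all 6 arrays had to be well above background, 2 with trend and robust eBayes, 10 with array weights, which gave cKO array 3 a weight of 0.17 and control array 2 a weight of 5.05, and 6 at an adjusted p under 0.10. Over all probes these settings gave 54, 112, 174, 105, 2205 and 457 calls. Over all probes it was 28 with quantile normalization and with the authors' table, and 0 with normexp and the 75th percentile, no filter, the slide term, the block or the methods' t-test. Genes lower with an unadjusted p under 0.05 numbered 15 (11.4% of all tested probes were), against 6 with normexp and the 75th percentile (2.39%) and 7 with the slide as a term (2.65%). The median log2 fold change of −0.48 was −0.35 and −0.38 in these fits, and that of all probes, −0.04, moved to 0.11 and −0.00. Under normexp with the 75th percentile, 16 of the 31 genes moved by more than the SD within groups. With an array left out, 21 to 23 genes were lower, with medians of −0.53 to −0.44, and 16 to 18 were separated (23.3% to 29.6% of all probes). Dropping an array cannot undo a separation, so a count under 16 was not possible. In these fits 0 were past the adjusted threshold (0 to 1 over all probes) and 10 to 14 were lower without adjustment (5.16% to 15.3%). With the replicate number as a block, 23 genes were lower, with a median of −0.48, 0 were past the adjusted and 11 past the unadjusted threshold (7.30%). Arrays of the same number did not deviate together (r = −0.14, 0.01 and −0.19 across probes). Except for filters, thresholds and smaller groups, the cause was not tested.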

Other observations

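A few genes outside the 37 were chosen after their values were seen, and nothing is read from them as a group. Ube2l6, the conjugating enzyme, read −0.15, −0.40 and −0.87 in cKO and 0.38, 0.43 and 0.56 in control, a log2 fold change of −0.93 (SE 0.20). Uba7, the activating enzyme, read 2.77, 2.83 and 3.01 in cKO and 3.33, 3.33 and 3.54 in control, with −0.53 (SE 0.12). Both were separated downward, the same-slide values were −0.85 and −0.46, and adjusted p-values in limma were 0.11 and 0.12. Nmi, the partner of Ifi35, had −0.72 (SE 0.19) and also separated groups. Herc6, which encodes the main ligase for ISG15 in mouse, had −0.09 (SE 0.21) with overlapping groups.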
